A study of Mus musculus with 26 samples.

Results

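The first 6 days of chemical reprogramming were described from 4 of the 26 mouse libraries of the study, by comparing the 3 libraries of day 6 with the MEF library of day 0. MEF are mouse embryonic fibroblasts, a mixed culture of connective tissue cells from the embryo. In chemical reprogramming such cells are taken toward pluripotency with small molecules in place of introduced transcription factors. The first day-6 library came from cells given all chemicals of the recipe, the next from cells given the recipe minus BrdU, and the last from cells given the recipe minus Chir. BrdU (bromodeoxyuridine) is a thymidine analogue that dividing cells build into their DNA. Chir is an inhibitor of the kinase GSK3, whose inhibition stabilises beta-catenin and switches on Wnt target genes. All 3 arms thus share the rest of the recipe. The doses, the remaining chemicals, the mouse strain and the number of embryos are not given in the sources used here. Each group is 1 library of total RNA, and nothing in the labels says whether the arms came from 1 batch of MEF.

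Values were deposited for 16718 genes on a common scale that forces nearly the same distribution on each library. The 4 libraries sum to between 4154952 and 4161164 units, each has a median of 77, and the top value of 21988 is held by 10 genes in each. A gene at that top value cannot show a further rise, and the number of reads behind a value is unknown. The share of genes listed at 0 was 10.8% in MEF and 6.52% to 8.63% on day 6. Against the other 2 arms, the all-chemicals library stood higher in genes with a long total exon length and lower in genes with a short one. Those values stand beside the genes of that arm. Changes are given as log2 of value + 1, which understates the change of genes near 0. Only genes whose mean over the 4 libraries reached 10 were tested, 13534 in all. A gene near 0 in MEF could reach this limit only through its day-6 values, so the counts and medians of a list describe its tested members and are no support for the direction of the whole list. The 3 arms served as the only repeats of day 6, so a gene passed when it differed from MEF by more than the arms differed among themselves. The lone MEF library was assumed to vary like them, and the 3 changes from MEF share that 1 library. The p-values measure the spread between these libraries and do not speak for a repeat with other MEF.

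By day 6 genes that were at or near 0 in MEF had risen in all 3 arms, among them Cyp26b1, Rarb and Lrat of retinoid handling, the Wnt inhibitor Notum and the placental hormone Prl2c3. Among those that fell were Eln, which encodes elastin, and the collagen gene Col8a1. With limma and an adjusted p under 0.05, 40 genes passed (0.296% of those tested), of which 34 rose (0.251%) and 6 fell (0.0443%). At an unadjusted p under 0.05 there were 1002 higher (7.4%) and 787 lower (5.81%). Counted by size alone, 992 genes stood at least 2-fold above MEF in all 3 day-6 libraries (7.33%) and 712 at least 2-fold below (5.26%). All 40 genes that passed the test lie in these shared sets. Of the 992, 261 were listed at 0 in MEF, and 14 of the 712 were listed at 0 in all 3 day-6 libraries. The shares of 7.33% and 5.26% are the ones to set beside the shared counts of the gene lists below. None of the 40 calls held when any 1 of the 3 day-6 libraries was left out, which left 1158 to 1791 genes at an unadjusted p under 0.05.

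**Figure D1:**
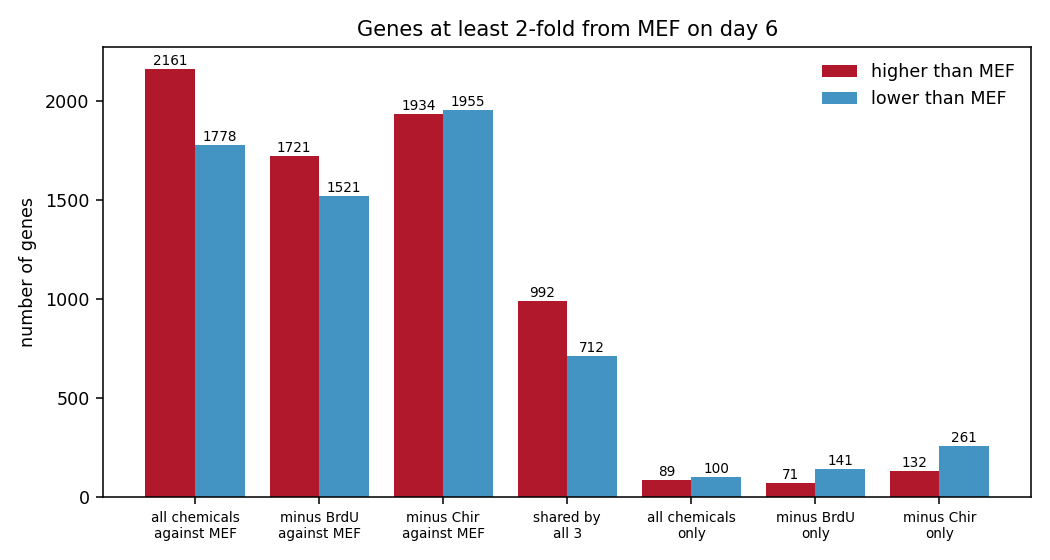
Number of genes at least 2-fold higher (red) or lower (blue) than MEF on day 6, out of 13534 tested, in each arm, in all 3 arms at once, and in 1 arm only (at least 2-fold from MEF and from both other arms, with those under 2-fold from MEF). The bars show 992 shared higher and 712 shared lower genes, against 71 to 132 higher and 100 to 261 lower genes in 1 arm only.

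Retinoic acid, made from vitamin A, enters the nucleus and activates the receptors RARA, RARB and RARG, which bind DNA and switch on their targets. Among the best known targets are the gene of RARB itself and the CYP26 enzymes, which destroy retinoic acid. Of the 18 retinoic acid genes tested, 10 stood at least 2-fold higher in all 3 arms and 1 lower, and the median log2 change was 1.29 with all chemicals, 1.73 minus BrdU and 1.47 minus Chir, against -0.05, 0 and 0 over all genes tested.

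Cyp26b1, which degrades retinoic acid, stood at 22 in MEF, 2631 with all chemicals, 2167 minus BrdU and 2280 minus Chir, a rise of 6.68 ± 0.29 (moderated SE, 3 day-6 libraries against 1, adjusted p = 0.013). The 3 arms lay close together and far from MEF. Rarb, the receptor, stood at 14 in MEF and at 729, 849 and 506 in the 3 arms in the same order, a rise of 5.50 ± 0.41 (adjusted p = 0.0443). Lrat, which stores vitamin A as retinyl esters, was listed at 0 in MEF and at 308, 323 and 300 on day 6 (adjusted p = 0.013). Cyp26b1 lies on chromosome 6 from 84571414 to 84593908, Rarb on chromosome 14 from 16430839 to 16819156 and Lrat on chromosome 3 from 82892579 to 82903973 (mm10). These 3 genes span degradation, sensing and storage of the same molecule.

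Other retinoid genes stood higher in all arms without passing the test, and several differed widely between the arms. Stra6, the membrane receptor that takes up vitamin A, was listed at 0 in MEF and stood at 982 with all chemicals, 1982 minus BrdU and 229 minus Chir (adjusted p = 0.0679). Cyp26a1, another enzyme that degrades retinoic acid, was listed at 0 in MEF and stood at 402, 53 and 884. Dhrs3, which turns retinaldehyde back to retinol, stood at 242 in MEF and at 1386, 1916 and 2277 (adjusted p = 0.0718). The order of the arms differed from gene to gene, with the minus BrdU library highest for Stra6 and lowest for Cyp26a1. Crabp2, which carries retinoic acid to its receptors, stood at 262 in MEF and at 620, 1046 and 742. The receptors Rara (176, then 262, 121 and 206) and Rarg (448, then 408, 464 and 382) stayed within 2-fold of MEF in every arm. Aldh1a2, which makes retinoic acid, stood at 52 in MEF and at 30, 14 and 10, and so did not follow the genes of uptake and breakdown.

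The DR5 element is a direct repeat to which retinoic acid receptors bind. It was searched on both strands of the promoters (250 bases before to 50 after the RefSeq start, GRCm38.p6), because 10 of the 18 retinoic acid genes tested stood higher in all arms. It was found in 2 of the 14 retinoic acid genes with a promoter in the table, against 31 of all 27025 genes (0.115%). The list was made of known retinoic acid genes, so these counts describe it and are not a test. Both are shown over the 150 bases before the start, with the element in capitals. In Rarb (chr14:16575477-16575626, minus strand) it covers the bases 53 to 37 before the start. In Cyp26a1 (chr19:37697658-37697807, plus strand) it lies on the opposite strand, 32 to 16 bases before the start.
Rarb: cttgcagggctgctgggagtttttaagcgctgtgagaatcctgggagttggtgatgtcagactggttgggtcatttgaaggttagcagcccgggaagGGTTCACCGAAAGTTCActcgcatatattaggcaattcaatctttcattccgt
Cyp26a1: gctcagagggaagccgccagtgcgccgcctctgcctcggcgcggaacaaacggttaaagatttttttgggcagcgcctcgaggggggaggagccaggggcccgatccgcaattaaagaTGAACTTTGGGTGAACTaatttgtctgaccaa
A match describes the letters in these windows and does not show binding. The Cyp26b1, Lrat and Stra6 windows held no such match.

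Wnt proteins act through beta-catenin, which joins the factors TCF and LEF on DNA, and many of the genes they switch on are brakes on the same pathway. Of the 18 Wnt target genes tested, 8 stood at least 2-fold higher in all 3 arms and 1 lower, with medians of 1.32 with all chemicals, 2.36 minus BrdU and 1.05 minus Chir. Notum, a secreted enzyme that removes the lipid Wnt needs, was listed at 0 in MEF and stood at 648, 612 and 424 in the 3 arms, and it rose (adjusted p = 0.013). It lies on chromosome 11 from 120653788 to 120661175 (mm10). Lef1, which was also listed at 0 in MEF, stood at 330 with all chemicals, 524 minus BrdU and 65 minus Chir (adjusted p = 0.0930). Axin2, a scaffold of the complex that destroys beta-catenin, stood at 17 in MEF and at 390, 328 and 70. Tcf7, a partner of beta-catenin, stood at 5 in MEF and at 308, 106 and 110. These targets thus stood above MEF also in the arm that did not receive Chir, though at lower values than with all chemicals.

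The difference between the arms was tested with the day-12 libraries as the only repeats of each arm (6 libraries, day as a block, each arm against the mean of the other 2, 13468 genes). In this fit 591 genes stood higher (4.39%) and 482 lower (3.58%) in the minus Chir arm, and 616 higher (4.57%) and 705 lower (5.23%) in the minus BrdU arm. The contrasts share all 6 libraries, so a gene high in the minus BrdU arm tends to be low in the minus Chir contrast. Of 20 Wnt targets in this fit, 10 stood lower minus Chir and 1 higher. Axin2 stood at 365, 214 and 101 on day 12 and was lower minus Chir (log2 difference -1.90 ± 0.26, adjusted p = 0.0142). Apcdd1, a membrane inhibitor of Wnt, stood at 63 in MEF, at 1585, 2634 and 140 on day 6 and at 1180, 1989 and 190 on day 12 (-3.43 ± 0.23, adjusted p = 0.00478). Lgr5, a receptor that strengthens Wnt signals, stood at 208 in MEF and at 526, 2335 and 44 on day 6, so it lay above MEF in both arms with Chir and below it without (-3.67 ± 0.42, adjusted p = 0.0106). Of the 20, 5 stood higher minus BrdU, among them Lgr5 (3.56 ± 0.42, adjusted p = 0.0104), Nkd1, a brake inside the cell (37 in MEF, then 867, 1580 and 254, 2.14 ± 0.25, adjusted p = 0.01), and Lef1 (1.86 ± 0.29, adjusted p = 0.0186). Bambi, a decoy receptor of the TGF-beta family, was the 1 higher minus Chir (56 in MEF, then 68, 77 and 284).

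**Figure D2:**
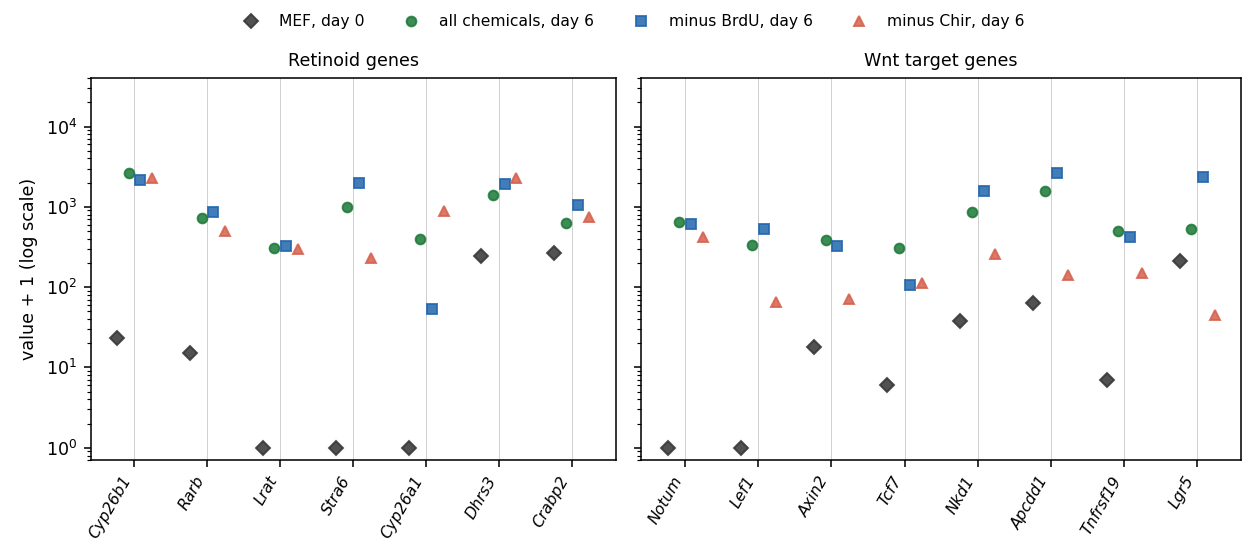
Deposited value + 1 on a log scale for retinoid genes and Wnt target genes in the 4 libraries, 1 point per library. Cyp26b1, Rarb and Lrat lie close together in the 3 day-6 arms, while Lef1, Axin2, Apcdd1 and Lgr5 lie lowest minus Chir (65, 70, 140 and 44).

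The remaining genes that rose most were not of 1 pathway, and most were listed at 0 in MEF, as were 24 of the 40 called genes. Prl2c3, a placental hormone of the prolactin family, stood at 432 with all chemicals, 616 minus BrdU and 612 minus Chir (adjusted p = 0.013). It belongs to a multigene family of near-identical copies, so its reads may be split among them. Ldoc1, a gene derived from a retrotransposon, stood at 438, 323 and 684 (adjusted p = 0.0233), and Cldn11, a tight junction protein of oligodendrocytes and Sertoli cells, at 690, 822 and 214 (adjusted p = 0.0476). The order of the arms differed between these genes. Csn3, which encodes the milk protein kappa casein, stood at 334, 140 and 418, and Il13ra2, a decoy receptor for the cytokine IL13, at 146, 206 and 134. The next 4 genes were also listed at 0 in MEF. Neto1, an auxiliary subunit of glutamate receptors, stood at 168, 145 and 190, and Syt6, a synaptotagmin of membrane fusion, at 180, 116 and 252. Tmem255a stood at 202, 406 and 198 and Wdr86 at 163, 99 and 187. Of 7 neural markers tested, 1 stood higher and 1 lower in all arms, and Sox1 stood at 0 in all 4 libraries.

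Among the 6 genes that fell were a collagen, elastin and a receptor that attaches cells to collagen. Col8a1, a short-chain collagen of vessel walls, stood at 3627 in MEF and at 110, 92 and 98 on day 6, a log2 change of -5.17 ± 0.31 (adjusted p = 0.0233). Eln, which encodes elastin, went from 604 to 10, 15 and 12 (-5.52 ± 0.50, adjusted p = 0.0476). Itga11, the collagen-binding integrin of fibroblasts, went from 954 to 7, 10 and 4 (-6.97 ± 0.66, adjusted p = 0.0476). In these genes the 3 arms lay within a narrow band at 4 to 110 units. C1qtnf3, a secreted protein with a C1q-like domain, went from 908 to 13, 20 and 10, Lcp1, an actin-bundling protein of blood cells, from 534 to 20, 18 and 24, and Map6, which stabilises microtubules, from 560 to 26, 22 and 26. In mm10 Col8a1 lies on chromosome 16 from 57624258 to 57754737, Eln on chromosome 5 from 134702593 to 134747323 and Itga11 on chromosome 9 from 62677826 to 62783982. The largest shared falls without a call included Meox2, a mesodermal homeobox factor (72 in MEF, listed at 0 in all 3 arms), Olfr78 (70, then 0 in all) and Sycp2 (58, then 0 in all).

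Fibroblasts that carry alpha smooth muscle actin are called myofibroblasts, and TGF-beta and serum response factor maintain their contractile genes. Of the 14 contractile genes tested, 10 stood at least 2-fold lower in all 3 arms and none higher (5.26% and 7.33% of all genes). Their medians were -3.54, -2.25 and -2.97, though no single member passed the test. Acta2, which encodes that actin, was at the top value of 21988 in MEF and stood at 206 with all chemicals, 1070 minus BrdU and 885 minus Chir (adjusted p = 0.127). Tagln, an actin-binding protein, stood at 4504 in MEF and at 96, 318 and 225. Cnn1, which encodes calponin, stood at 510 and then at 14, 56 and 22. The all-chemicals library was the lowest of the 3 in each of these genes, and all arms lay below MEF. In the limma fit over days 6 and 12, 6 of the 14 stood higher minus BrdU and 2 lower. Over all genes in the fit the shares were 4.57% and 5.23%. Among the 6 were Tagln (1.22 ± 0.19, adjusted p = 0.0178) and Tpm2, a tropomyosin (1.29 ± 0.23, adjusted p = 0.0256). Des, which encodes desmin, went the other way in the arms, at 238 in MEF, 144 with all chemicals, 41 minus BrdU and 479 minus Chir.

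TGF-beta targets, of which Acta2 and Tagln are also members, stood at least 2-fold lower in all arms in 11 of 22 tested and higher in none, with medians of -0.98, -1.30 and -1.43. Ltbp2, of the microfibrils, stood at 1190 in MEF and then at 279, 272 and 203 (adjusted p = 0.0872). Ctgf, a matrix-bound growth regulator, stood at 3229 and then at 332, 68 and 804, and it was lower minus BrdU over days 6 and 12 (-2.55 ± 0.25, adjusted p = 0.00731). Of 18 YAP and TEAD targets, which include Ctgf, 7 stood lower in all arms and none higher. Set beside both lists, 5.26% of all genes tested stood lower in this way and 7.33% higher. Cyr61, a close relative of Ctgf, stood at 2214 in MEF and at 4504, 3416 and 4962, the opposite side.

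Fibroblast identity genes went both ways, with more on the lower side. Of 37 tested, 10 stood at least 2-fold lower in all arms and 4 higher (5.26% and 7.33% of all genes). At any size, 21 stood below MEF in all 3 arms and 6 above, against 4064 and 3722 of 13534 genes. Their medians were -0.82, -0.73 and -1.18. Col1a1, the main chain of type I collagen, was at the top value of 21988 in MEF and stood at 3233, 5529 and 2631. Fbln5, which assembles elastic fibres, stood at 4968 and then at 82, 201 and 182 (adjusted p = 0.0613). Thy1, a surface marker of fibroblasts, stood at 2167 in MEF and at 1126, 907 and 660, lower than MEF in each arm. Pdgfra, the receptor that marks mesenchymal progenitors, stood on the other side, at 692 and then at 2556, 3238 and 1557. Dcn, a small proteoglycan, stood at 1517 and then at 5544, 11346 and 5544. Col3a1 was at the top value in MEF, with all chemicals and minus BrdU, so nothing can be read from it there. Of 23 mesenchymal transcription factors tested, 1 stood at least 2-fold higher and 3 lower in all arms. Taken arm by arm, 4 stood higher and 8 lower with all chemicals, 2 and 7 minus BrdU, and 2 and 9 minus Chir. The shares of all genes tested were 16% higher and 13.1% lower with all chemicals. They were 12.7% and 11.2% minus BrdU, and 14.3% and 14.4% minus Chir. Snai2 stood at 300 in MEF and at 248, 280 and 164, and Twist1 at 286 and then at 804, 1080 and 319.

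The MEF library also carried macrophage markers, and these stood lower on day 6. All 19 markers in the table were tested, and 16 stood at least 2-fold lower in all 3 arms and none higher, though none passed the test. Their summed value was 6857 in MEF and 592 to 1177 on day 6. Csf1r, the receptor for the growth factor of macrophages, stood at 386 in MEF and at 4, 14 and 16 (-5.16 ± 0.87, adjusted p = 0.107). C1qa, a chain of complement C1q, stood at 374 and was listed at 0 with all chemicals, at 3 minus BrdU and at 8 minus Chir. Ptprc, the common leukocyte antigen, stood at 178 and was listed at 0 in the first 2 arms and at 22 minus Chir. Lyz2, a lysozyme, stood at 1686 and then at 58, 116 and 252, highest of the 3 minus Chir (1.91 ± 0.26 over days 6 and 12, adjusted p = 0.0142). C1qc, another chain of C1q, stood at 390 and then at 1, 3 and 3 (adjusted p = 0.0677). Lcp1, which fell, is expressed in macrophages too, and the part of these cells in its fall was not tested. In bulk RNA fewer cells of a type and less RNA per cell cannot be told apart.

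Markers of other cell types varied in MEF. Pecam1 of endothelium stood at 6, Cdh1 of epithelium at 2, Pou5f1 of pluripotent cells at 2, and Sox17 of endoderm and Myod1 of muscle were listed at 0. Other members of such lists were high, and the summed values in MEF were 10207 over 9 genes of cartilage and bone, of which Spp1 gave 6884, 1335 over 14 neural genes and 1088 over 25 epithelial genes, of which Cdh3 gave 564. On day 6 Pecam1 stood at 16, 11 and 32, and Kdr, the receptor for VEGF, at 40 in MEF and at 194, 380 and 112.

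**Figure D3:**
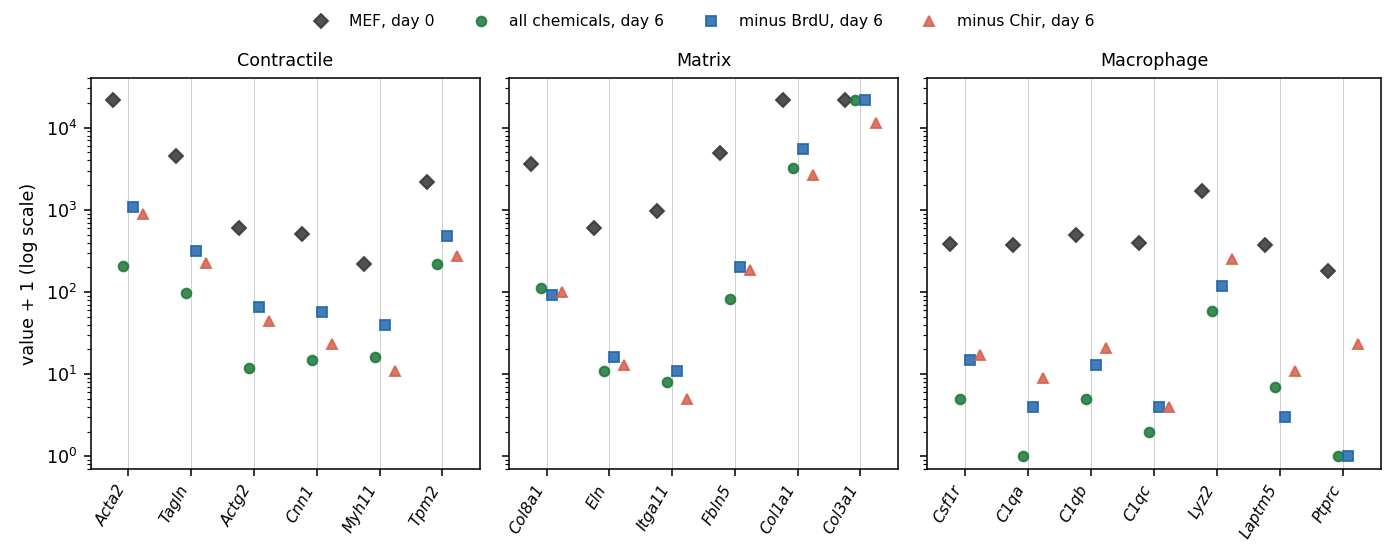
Deposited value + 1 on a log scale for contractile, matrix and macrophage genes in the 4 libraries, 1 point per library. MEF lies above all 3 arms for every gene drawn except Col3a1, which is at the common top value of 21988 in 3 of the libraries. Acta2 stood at 206 to 1070 on day 6 and Csf1r at 4 to 16.

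Of 32 pluripotency genes, 21 had a mean below the limit for testing, among them the core factors, while the summed value of the list stood at 1793 in MEF and at 4570, 3706 and 2917 on day 6. Pou5f1 stood at 2 in MEF and at 0, 4 and 0, Nanog at 7 and then at 0, 3 and 0, and Sox2 at 3 and then at 0, 2 and 1. Sall4 was listed at 0 in MEF and minus BrdU, at 13 with all chemicals and at 7 minus Chir, and Lin28a stood at 3 or less throughout. Of the 11 tested, 3 stood higher in all arms and none lower. Tbx3, a T-box factor that is also active in limb and heart, stood at 120 and then at 908, 586 and 801 (adjusted p = 0.0801). L1td1, an RNA-binding protein of embryonic stem cells, was listed at 0 in MEF and at 22, 14 and 42, and Tdgf1, a co-receptor of Nodal, stood at 2 and then at 82, 10 and 286.

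Endoderm genes, which mark an intermediate state known from chemical reprogramming, went both ways. Of 14 tested, 5 stood at least 2-fold higher in all arms and 3 lower, with medians of -0.16, -0.82 and -0.43. At any size, 6 stood above MEF in all 3 arms and 8 below. The median over day 6 was -0.56, and 0.33 with no filter. The summed value of the 24 genes of the list was 28772 in MEF and 17375, 15676 and 17330 on day 6. Gata6, a master factor of primitive endoderm that mesenchyme also expresses, stood at 80 in MEF and at 301, 390 and 376 (adjusted p = 0.0919), and Sox17 was listed at 0 and then at 15, 18 and 22. Sox7 stood at 2 and then at 64, 12 and 192, and Lama1, a laminin chain, at 36 and then at 390, 225 and 222. Gata4 stood at 8 in MEF and at 12, 2 and 12, and Foxa2 and Hnf4a at 3 or less. The 3 on the lower side were Dab2, an endocytic adaptor (1348, then 250, 540 and 251), Col4a1 (5536, then 2634, 1028 and 1797) and Col4a2 (3842, then 1832, 790 and 1554), which fibroblasts express as well.

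Epithelial genes differed by arm. Of 25 with values, 12 were below the limit for testing. Of 13 tested, 6 stood at least 2-fold higher in all arms, and the minus BrdU library was the lowest of the 3 in all 13, against 3988 of the 13534 genes tested. Of 19 in the fit over days 6 and 12, 4 stood lower minus BrdU, against 5.23% of all genes in the fit. Medians of the 13 were 3.54 with all chemicals, 0.74 minus BrdU and 2 minus Chir, and the median over day 6 was 2.42, which became 0.81 with a pseudocount of 20 and 0.53 with no filter. Krt8, a keratin of simple epithelia, stood at 6 in MEF and at 233, 18 and 465. Its partner Krt18 stood at 19 and then at 468, 107 and 642, and was lower minus BrdU over days 6 and 12 (-1.82 ± 0.27, adjusted p = 0.0162). Epcam, an epithelial adhesion molecule, stood at 4 and then at 70, 24 and 68, and at 631, 68 and 334 on day 12 (-2.11 ± 0.35, adjusted p = 0.021). Cdh1 stood at 2 and then at 34, 4 and 24. Cdh3, which encodes P-cadherin, stood at 564 in MEF and at 5, 4 and 12, on the lower side in all arms (adjusted p = 0.0677).

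cAMP raises transcription through the factor CREB, and the immediate early genes of AP-1 respond to cAMP and to growth factors. Of 22 cAMP genes tested, 6 stood at least 2-fold higher in all arms and none lower (7.33% and 5.26% of all genes). Their medians were 1.03, 1.17 and 0.31. Fos stood at 578 in MEF and at 3416, 4502 and 5522 (adjusted p = 0.0712), and Fosb at 1226 and then at 3846, 4208 and 3088. Dusp1, a phosphatase that ends MAP kinase signals, stood at 786 and then at 3229, 2414 and 3082. Areg, a ligand of the EGF receptor, stood at 30 and then at 384, 700 and 272 (adjusted p = 0.0930). The minus Chir library was the lowest of the 3 in 16 of the 22, against 4567 of the 13534 genes tested. In the limma fit over days 6 and 12, 5 of the 22 stood higher minus BrdU and none lower (4.57% and 5.23% of all genes). Minus Chir, 3 stood lower and 1 higher in that fit (3.58% and 4.39% of all genes). Nr4a1, an orphan receptor often induced with these genes, stood at 1302 and then at 1583, 1583 and 834.

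The CREB element TGACGTCA was found in the promoters of 3 of 15 cAMP genes in the table (Areg, Dusp1 and Sst), against 549 of 27025 genes (2.03%). The Areg window is shown (chr5:91139449-91139598, plus strand), with the element 61 to 54 bases before the start in capitals.
Areg: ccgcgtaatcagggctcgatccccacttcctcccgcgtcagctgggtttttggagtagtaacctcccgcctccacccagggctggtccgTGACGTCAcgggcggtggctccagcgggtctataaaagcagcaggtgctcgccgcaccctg
The letters CTTTGAT of TCF sites were found in 2 of 16 Wnt genes (Sp5 and Tnfrsf19), against 4.29% of all genes. The cAMP and Wnt lists were also made of known genes of these pathways. Their motif counts thus describe the lists, are not a test and do not show binding.

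Cholesterol is made by a chain of enzymes under the factor SREBP2. Of the 25 genes of the chain tested, 11 stood at least 2-fold higher in all arms and none lower, and 23 stood above MEF in all 3 arms at any size, against 3722 of 13534 genes. Medians were 1.13, 1.95 and 1.03. Hmgcs1, an early enzyme, stood at 796 in MEF and at 2917, 4980 and 3241 (adjusted p = 0.125). Dhcr7, the last step of one branch, stood at 108 and then at 518, 558 and 626 (adjusted p = 0.0677). The minus BrdU library was the highest of the 3 in 20 of the 25, against 4363 of the 13534 genes tested. Over days 6 and 12, 9 of the 25 stood higher minus BrdU, against 4.57% of all genes in the limma fit. Among the 9 was Acat2 (207 in MEF, then 464, 1794 and 570, 1.79 ± 0.17, adjusted p = 0.00685). The desaturases Scd1 (886, then 4974, 4974 and 3238) and Scd2 (2277, then 11327, 8307 and 8307) stood higher in all arms with 4 more of the 17 genes of fatty acid synthesis tested.

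Genes of detoxification stood higher together. Of 24 NRF2 and xenobiotic genes tested, 12 stood at least 2-fold higher in all arms and none lower (7.33% and 5.26% of all genes). Their medians were 1.78, 1.49 and 1.38. Gsta4, a glutathione transferase, stood at 62 in MEF and at 400, 514 and 687 (adjusted p = 0.0718), and Gclc, the enzyme that starts glutathione synthesis, at 138 and then at 1256, 532 and 782. Gsta2 was listed at 0 in MEF and at 70, 57 and 46, and shares near-identical copies with Gsta1. Nqo1, a quinone reductase, stood at 40 and then at 274, 307 and 107. Hmox1, which breaks down heme, stood at 1106 and then at 1229, 816 and 1118, near MEF in all arms. Of 14 acute phase and complement genes tested, 8 stood higher and 1 lower in all arms. C3 stood at 19 and then at 650, 573 and 278 (adjusted p = 0.0677), and Lcn2, which binds iron carriers of bacteria, at 3 and then at 1226, 200 and 2764.

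Few growth and damage genes stood 2-fold from MEF in all 3 arms. None of 30 mitosis genes and none of 34 DNA replication genes stood 2-fold higher or lower in all arms. Of 27 targets of p53, 1 stood lower and none higher. Over all genes tested the shares were 7.33% higher and 5.26% lower. At any size, 19 of the 34 replication genes stood above MEF in all 3 arms and none below, against 3722 and 4064 of 13534 genes. Cdkn1a, a brake on the cell cycle and a p53 target, stood at 1650 in MEF and at 1289, 1138 and 956. Mki67, a marker of cycling cells, stood at 520 in MEF, 1105 with all chemicals, 308 minus BrdU and 635 minus Chir, above MEF in 2 arms and below it in the other. The minus BrdU library was the lowest of the 3 in 29 of the 30 mitosis genes, against 3988 of 13534 genes tested. Over days 6 and 12, 10 of the 30 stood lower minus BrdU, against 5.23% of all genes in the fit. Mki67 stood at 778, 112 and 421 on day 12 (-1.89 ± 0.24, adjusted p = 0.0119) and Top2a, a topoisomerase of dividing cells, at 1052, 172 and 600 (-1.79 ± 0.29, adjusted p = 0.021). Igfbp5, a binding protein of insulin-like growth factors, stood at 2545 in MEF and at the top value of 21988 in all 3 arms (adjusted p = 0.0527), and its relative Igfbp4 at 798 and then at 4959, 5522 and 6861.

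Imprinted, placental and germline genes were among those that stood higher. Peg10, an imprinted gene derived from a retrotransposon that the placenta needs, stood at 107 in MEF and at 5529 with all chemicals, 982 minus BrdU and 8314 minus Chir. Mest stood at 745 and then at 3420, 6868 and 6869, and Peg3 at 1138 and then at 6869, 3634 and 4966. These were 3 of the 4 imprinted genes, of 21 tested, that stood at least 2-fold higher in all arms, with Dcn, and none stood lower. Peg10 was lower minus BrdU over days 6 and 12 (-2.58 ± 0.25, adjusted p = 0.00723). Of 19 germline genes with values, 11 were below the limit for testing, and of the other 8, 5 stood higher and 1 lower in all arms. The median change of the germline list was 3.11 over the tested genes, 1.44 with a mean of at least 1 and 0.79 with no filter. Sycp3, of the axis of meiotic chromosomes, was listed at 0 in MEF and at 22, 28 and 41 (adjusted p = 0.0872), and Sycp1, which zips paired chromosomes together, was listed at 0 and then at 62, 30 and 28 (adjusted p = 0.0870). Dazl, which germ cells need to form, was listed at 0 in MEF and in the first 2 arms and at 8 minus Chir.

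Some chromatin and homeobox genes stood at least 2-fold from MEF in all 3 arms, in small counts not far from the shares over all genes. Over all genes tested, 7.33% stood higher in this way and 5.26% lower. Of 27 chromatin enzymes and cofactors tested, 3 stood higher in all arms and none lower. Jarid2, a partner of a Polycomb complex, stood at 102 in MEF and at 914, 1214 and 502, and Setdb1, a histone methyltransferase, at 160 and then at 858, 434 and 510. Ezh2, the enzyme of that complex, stood at 134 and then at 172, 163 and 149. Of 29 homeobox cluster genes tested, 2 stood higher and 3 lower in all arms. Hoxa4 stood at 12 in MEF and at 56, 75 and 58 and Hoxa5 at 78 and then at 170, 402 and 226, while Hoxd13, a gene of the limb tip, stood at 166 and then at 20, 24 and 39. Of 19 glycolysis genes 2 stood higher in all arms, the glucose transporter Slc2a3 (70, then 338, 221 and 440) and the regulator Pfkfb3 (180, then 725, 446 and 580). Phgdh, which starts serine synthesis, stood at 884 in MEF and at 172, 176 and 262.

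**Figure D4:**
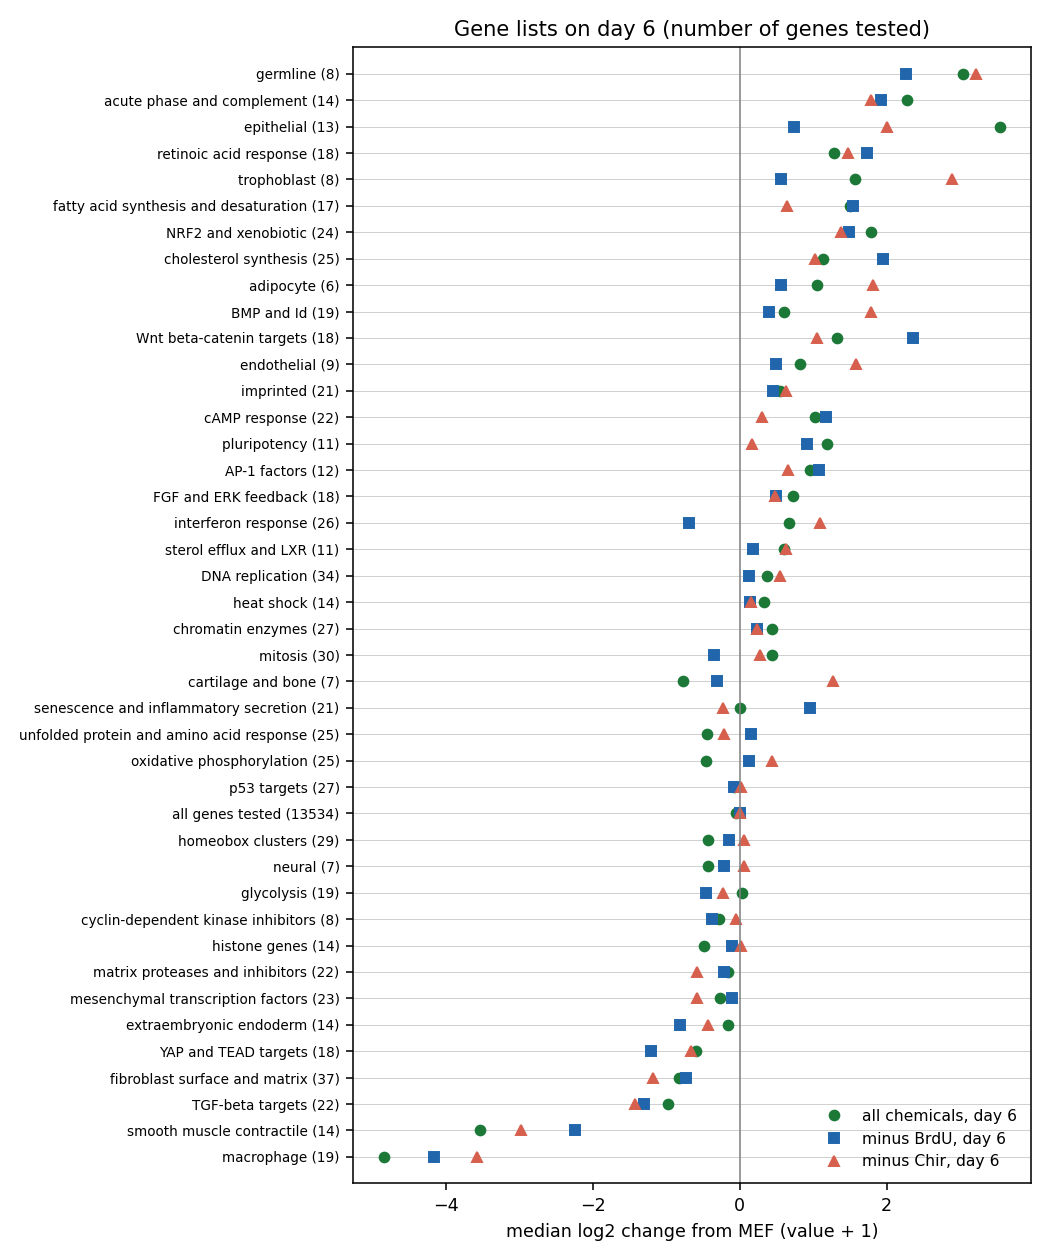
Median log2 change from MEF of each gene list with at least 5 genes tested, in the 3 day-6 arms, with the number tested in brackets. Macrophage and contractile lists lie lowest in all arms, and the interferon list lies below 0 only minus BrdU (-0.69, against 0.66 and 1.09).

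Changes in 1 arm only were counted where that arm stood at least 2-fold from MEF and from both other arms while those stayed under 2-fold from MEF. With all chemicals 89 genes stood higher (0.658%) and 100 lower (0.739%). Minus BrdU there were 71 higher (0.525%) and 141 lower (1.04%), and minus Chir 132 higher (0.975%) and 261 lower (1.93%). The day-12 libraries, which the count did not use, showed how far these patterns recurred. Of the 71 higher minus BrdU, 63.4% stood at least 2-fold above both other arms on day 12 too, against 6.04% of all genes tested, and of the 141 lower 40.4% did, against 6.18%. Minus Chir the shares were 39.4% against 5.73% for higher and 25.3% against 4.12% for lower. With all chemicals they were 10.1% against 2.24% and 7% against 2.01%. Genes of 1 arm named below were picked by their day-6 gap to the other arms. Their p-values come from the limma fit over days 6 and 12, which includes the day-6 values that picked them. Only their day-12 values are separate from that choice.

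Minus BrdU alone, receptors and enzymes of varied kinds stood higher. Agtr2, a receptor for angiotensin II, stood at 425 in MEF, 258 with all chemicals, 1994 minus BrdU and 216 minus Chir on day 6, and at 172, 3644 and 90 in the arms on day 12 (3.97 ± 0.41, adjusted p = 0.00792). Ntrk2, the receptor for the neurotrophin BDNF, stood at 22 in MEF, at 14, 130 and 12 on day 6 and at 20, 365 and 10 on day 12 (3.91 ± 0.40, adjusted p = 0.00783). Sorcs1, a sorting receptor, stood at 88, then at 137, 624 and 70, and at 108, 906 and 86 on day 12. On both days the minus BrdU library stood apart and the other 2 arms lay near each other. Fdx1, an electron carrier of steroid synthesis, stood at 77 in MEF and at 81, 446 and 74. Among matrix genes Lum, a proteoglycan of collagen fibrils, stood at 647 and then at 1171, 4518 and 500 (2.88 ± 0.26 over days 6 and 12, adjusted p = 0.00608). In that limma fit 13 of 36 fibroblast genes stood higher minus BrdU and 1 lower, against 4.57% and 5.23% of all genes. Ccl7, a chemokine, was not counted in this arm only, as its minus BrdU value was under 2-fold from MEF. It stood at 514 and then at 188, 838 and 275, and at 375, 1586 and 322 on day 12 (2.03 ± 0.21, adjusted p = 0.00792).

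On the lower side minus BrdU, Klf8, a Krüppel-like factor, stood at 28 in MEF, 36 with all chemicals and 46 minus Chir and was listed at 0 minus BrdU, and on day 12 it stood at 93, 0 and 32 (adjusted p = 0.00737). Platr16, a noncoding RNA, stood at 28, 28, 0 and 50 in the same 4 libraries and at 68, 0 and 57 on day 12.

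Interferon-stimulated genes, which answer viral RNA or DNA in the cell, separated the arms. The median of the 26 tested was 0.66 with all chemicals, -0.69 minus BrdU and 1.09 minus Chir, and the minus BrdU library was the lowest of the 3 in 21, against 3988 of 13534 genes tested. Of 25 in the fit over days 6 and 12, 15 stood lower minus BrdU and none higher, and 14 stood higher minus Chir and none lower. Over all genes in the fit, 5.23% stood lower minus BrdU and 4.39% higher minus Chir. Both contrasts use the same 6 libraries, so these counts are not separate results. Isg15, a ubiquitin-like protein, stood at 178 in MEF, 316 with all chemicals, 67 minus BrdU and 970 minus Chir, and at 262, 160 and 954 on day 12 (minus BrdU -2.33 ± 0.33, adjusted p = 0.0148, and minus Chir 2.47 ± 0.33, adjusted p = 0.0136). Usp18, which removes Isg15 from proteins, stood at 40 and then at 159, 28 and 414 (minus BrdU -2.72 ± 0.25, adjusted p = 0.00608). For both genes the minus BrdU library lay below MEF and the other 2 arms above it. Oasl2 stood at 70 and then at 559, 63 and 893, near MEF minus BrdU.

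Of 19 BMP genes tested, 14 stood at least 2-fold above MEF minus Chir, 6 with all chemicals and 3 minus BrdU. The shares of all genes tested in the same order were 14.3%, 16% and 12.7%. Smad6, an inhibitor that BMP switches on, stood at 114 in MEF, 196 with all chemicals, 134 minus BrdU and 1712 minus Chir, and at 216, 173 and 1915 on day 12 (3.35 ± 0.16, adjusted p = 0.00221). It lies on chromosome 9 from 63953076 to 64022059 (mm10). Id2, an inhibitor of differentiation factors and a BMP target, stood at 484 and then at 856, 678 and 3088 (1.57 ± 0.24, adjusted p = 0.0177). Over days 6 and 12, 7 of 19 BMP genes stood higher minus Chir (against 4.39% of all genes) and 2 lower (against 3.58%). Bmp2 itself was 1 of the lower ones, at 19 in MEF and at 282, 206 and 97 (-1.53 ± 0.20, adjusted p = 0.0127), with Msx1, a homeobox factor (82, then 107, 134 and 25).

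Dlk1, an imprinted gene whose secreted form holds back fat cell formation, stood at 854 in MEF, 1190 with all chemicals, 946 minus BrdU and 8303 minus Chir, and at 718, 210 and 6861 on day 12 (3.55 ± 0.38, adjusted p = 0.00934). Ddc, which makes dopamine and serotonin, stood at 12, 18, 13 and 233, and Fabp4, a fatty acid carrier of fat cells and macrophages, at 62, 48, 32 and 468 (adjusted p = 0.0540). Pparg, the factor that drives fat cell formation, stood at 36 and then at 115, 178 and 626, above MEF in all arms and highest minus Chir. Among genes of bone, Spp1, which encodes osteopontin, stood at 6884 in MEF, at 3644 and 5544 in the first 2 arms and at the top value of 21988 minus Chir. Alpl, the alkaline phosphatase of bone, was listed at 0 and then at 510, 77 and 3841, also above MEF in all arms (3.61 ± 0.41 minus Chir over days 6 and 12, adjusted p = 0.0106). Sprr2a2 was also at the top value minus Chir and belongs to a family of near-identical copies. Col6a3, a chain of type VI collagen, stood at 1494 in MEF, 843, 903 and 42, and at 200, 974 and 30 on day 12 (-4.09 ± 0.43, adjusted p = 0.00914). Of 36 fibroblast genes in that fit 13 stood lower minus Chir and 2 higher, against 3.58% and 4.39% of all genes. This contrast shares its 6 libraries with the minus BrdU contrast, so the 2 fibroblast counts are not separate results. With Col6a3 the chains Col6a1 (2419, then 2419, 2104 and 530) and Col6a2 (1874, then 2277, 1681 and 867) stood lower.

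With all chemicals alone, no gene passed the fit over days 6 and 12 (limma, smallest adjusted p = 0.0713, 2148 genes at an unadjusted p under 0.05). Gpr179, an orphan receptor of the retina, stood at 21 in MEF, 134 with all chemicals, 14 and 28, and at 226, 30 and 56 on day 12 (2.56 ± 0.23, adjusted p = 0.0761). Atp7a, a copper pump, stood at 86, 413, 120 and 48, and the kinase Abl2 at 310, 1140, 336 and 218, and on day 12 neither stood 2-fold above both other arms (Atp7a at 112, 69 and 72, and Abl2 at 233, 161 and 267). On the lower side Gemin4, of the complex that assembles splicing particles, stood at 93, 12, 171 and 65, and Sdhaf1, an assembly factor of the respiratory chain, at 76, 15, 88 and 63. The exon length of the genes, summed over all exons of a gene, moved with this arm and with the minus Chir arm. The median exon length was 9180 bases in the 89 higher genes and 2711 bases in the 100 lower ones, against 4491 bases over all genes tested. Over the 3348 genes with at least 6935 bases of exon the all-chemicals library stood above the mean of the other 2 arms by a median log2 of 0.27, and over the 3352 genes with at most 2804 bases its median stood at -0.31. Minus Chir the median exon length was 3082 bases in the 132 higher genes and 5576 bases in the 261 lower ones, and the median change from MEF was 0.09 over the short genes and -0.09 over the long ones at the same limits. Minus BrdU the lengths were 4235 and 4700 bases, and the median change was 0 over both. The part of length in these differences was not tested. Genes of oxidative phosphorylation, with a median change of -0.46 with all chemicals, 0.12 minus BrdU and 0.44 minus Chir, stood highest minus Chir in 24 of 25, against 4948 of 13534 genes tested, though 1 passed the fit over days 6 and 12 (Cox6c, 1.14 ± 0.23, adjusted p = 0.0375).

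**Figure D5:**
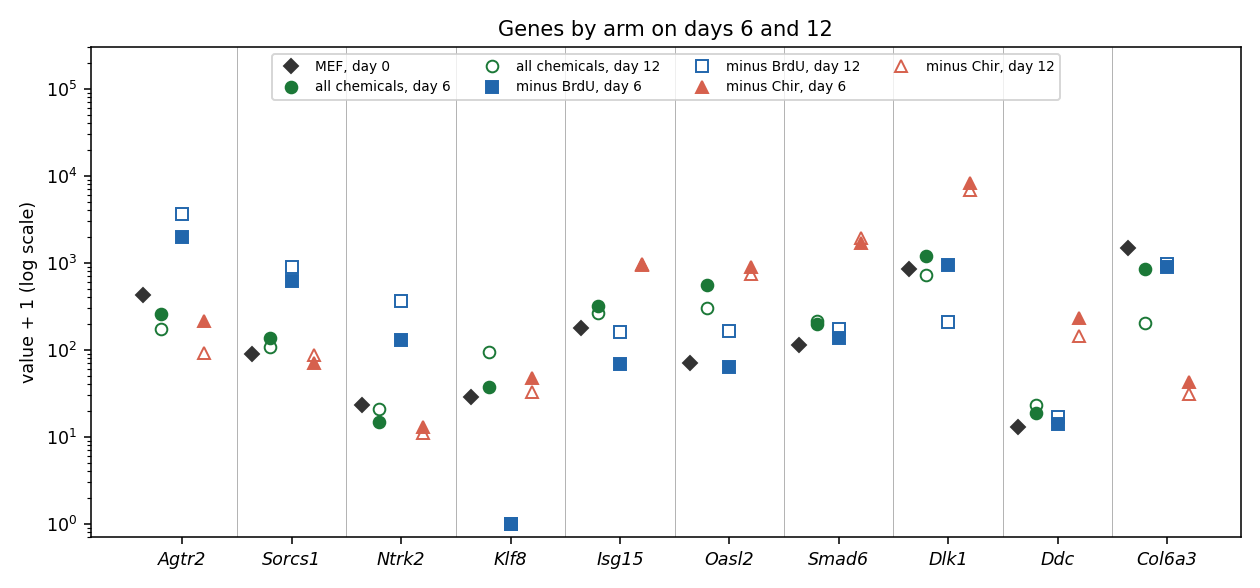
Deposited value + 1 on a log scale for genes that stood apart in 1 arm, and for the interferon genes Isg15 and Oasl2, in MEF and in the 3 arms on day 6 (filled) and day 12 (open). Agtr2, Sorcs1 and Ntrk2 lie highest minus BrdU on both days, Smad6, Dlk1 and Ddc highest minus Chir, and Col6a3 lowest minus Chir (42 on day 6 and 30 on day 12).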

How the data were processed

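RNA isolated with TRIzol was made into TruSeq libraries and read on a NextSeq instrument, per the labels. Per the submitters' processing notes, the tools were bcl2fastq, Bowtie2 and RSEM with the mm10 genome, and no normalization or filter is given in the sources used here. The deposited values were treated as a score that the authors brought to 1 common distribution and rounded. The table's name says CPM, which the column sums contradict, so no count test was run and depth is unknown. Tests used limma 3.58.1 (R 4.3.3) with an intensity trend on log2(value + 1) of genes whose mean reached 10 in the libraries fitted, two-sided, with Benjamini-Hochberg adjustment and a limit of 0.05. Gene positions and total exon lengths per gene came from GENCODE, and promoters from RefSeq (GRCm38.p6). The fit was run on simulated data in which all genes had the same spread, so that run does not speak for the calls made here. Members and gene lists were chosen with earlier results of these data known. Genes named were the 12 largest shared rises and falls by the smallest arm change (called first), up to 8 each way for 1 arm, list members with the smallest p, and 20 standing markers, without predicted or clone names. Lum, Lcn2 and similar list members are given by value. Some genes are not reported here.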

Additional observations from a re-analysis of the deposited data

Results flagged for a closer look

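On days 6 and 12 the arms differed from each other in a tested contrast. With limma, 1321 genes differed between the minus BrdU arm and the mean of the other 2 arms, and 1073 between the minus Chir arm and the mean of the other 2.

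The median change from MEF of the 26 interferon genes lay on opposite sides of 0 in the arms, at 0.66 with all chemicals, -0.69 minus BrdU and 1.09 minus Chir. The difference between these medians was not tested. The 7 cartilage and bone genes had medians of -0.78 with all chemicals, -0.31 minus BrdU and 1.27 minus Chir, and this difference between medians was not tested either.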

How the results depend on the processing

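Each arm is 1 library per day, the spread rests on 3 day-6 libraries, and depth is unknown. No paired analysis was possible for day 6 against MEF because MEF is 1 library. Without the day block the fit over days 6 and 12 gave 899 genes minus BrdU, 730 minus Chir and 0 with all chemicals. The 40 genes called on day 6 became 6 with a pseudocount of 5, 23 with a pseudocount of 20 (39.1% of them higher, against 85%), 0 with a mean of at least 1, 0 with no filter, 153 with no intensity trend and 611 with the spread taken also from the 6 CiPSC libraries (67.1% higher, 33 of the 40 among them). Leaving out each day-6 library gave 0 to 0. Mki67, which was not called, ranged from -0.23 (without the all-chemicals library) to 0.69 (without the minus BrdU library).

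The 992 shared higher genes became 506 with a pseudocount of 20, 526 with a mean of at least 50 and 491 at 4-fold, and the 712 shared lower genes 395 and 229 in the last 2 settings. Genes in 1 arm only (189 with all chemicals, 212 minus BrdU, 393 minus Chir) became 90, 115 and 238 with a pseudocount of 20, 349, 350 and 626 with a mean of at least 1, 398, 392 and 730 with no filter, 84, 112 and 205 with a mean of at least 50, and 23, 34 and 64 at 4-fold. The 1321 genes minus BrdU and 1073 minus Chir over days 6 and 12 became 545 and 455 with a mean of at least 1, 322 and 296 with no filter, 716 and 587 with no intensity trend, and 2670 and 2452 with day 18 added. With all chemicals the count of 0 became 3 with a mean of at least 50, 3 with no intensity trend and 272 with day 18 added. Leaving out genes at the top value, chosen after seeing the data, changed no shared or 1-arm count by over 1.5 times. Of the named genes, 616 of their values kept side and call, 144 lost the call and 28 gained it. Of 449 medians of gene lists under the alternatives 38 moved, in 21 of the 45 lists. The germline median of 3.11 became 2.09 and 1.19 with a pseudocount of 5 and 20, and 1.04 with a mean of at least 50. The causes were not tested.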
